A study of Mus musculus with 2 samples.

Results

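The globin genes of the mouse encode the protein chains of haemoglobin. The 7 genes described here are Hbb-y and Hbb-bh1, the embryonic beta-type genes, Hbb-bs and Hbb-bt, the adult beta-type genes, Hba-x, the embryonic alpha-type gene, and Hba-a1 and Hba-a2, the adult alpha-type genes. They were chosen by symbol, with every transcript row that belongs to them, and make up 7 of 43346 mouse gene rows and 12 of 103639 mouse transcript rows. Total RNA was sequenced from the facial prominences of healthy B6NCrl mouse embryos, the buds of tissue that form the face, at embryonic day 12.5. Replicate 1 came from a pool of 120 embryos and replicate 2 from a pool of 88 embryos, each of both sexes. There was 1 group and no treatment, mutant or other stage, so levels, their order and their ratios are described over 2 libraries with no test. Variation between single embryos cannot be seen in pools, and whether the embryos' blood was rinsed from the tissue is not given in the sources used here.

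Haemoglobin is a tetramer that joins alpha-type with beta-type chains in equal number around haem and carries oxygen in red cells. The beta-type genes lie in a cluster on chromosome 7 and the alpha-type genes in a cluster on chromosome 11, and in each cluster the embryonic genes come first. In the mouse embryo the first red cells, called primitive, arise in the yolk sac and carry embryonic chains together with adult alpha chains, whereas the later, definitive red cells of the foetal liver carry adult chains. Within the primitive lineage, Hbb-bh1 and Hba-x are known to predominate early and Hbb-y and the adult alpha genes later. Globin mRNA in a tissue such as the face is usually carried by the blood in its vessels, and in bulk RNA fewer cells of a type and less RNA per cell cannot be told apart.

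The coding sequences of these genes decide which reads can tell them apart, so their first 90 bases are shown from the spliced GENCODE M21 transcripts on build GRCm38, with the embryonic gene of each chain type as the one compared with. Capitals mark bases that differ from Hbb-y in the beta-type genes, all on the minus strand of chromosome 7, and from Hba-x in the alpha-type genes, all on the plus strand of chromosome 11. All 7 stretches lie in the first of 3 exons.
Hbb-y, chr7:103853063-103853152: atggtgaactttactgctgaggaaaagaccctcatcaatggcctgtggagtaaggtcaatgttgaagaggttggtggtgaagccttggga
Hbb-bh1, chr7:103843021-103843110: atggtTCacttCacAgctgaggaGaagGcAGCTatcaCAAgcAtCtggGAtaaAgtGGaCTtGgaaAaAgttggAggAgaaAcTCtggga
Hbb-bs, chr7:103827786-103827875: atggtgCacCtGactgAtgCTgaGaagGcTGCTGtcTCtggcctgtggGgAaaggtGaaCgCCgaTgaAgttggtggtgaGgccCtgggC
Hbb-bt, chr7:103813780-103813869: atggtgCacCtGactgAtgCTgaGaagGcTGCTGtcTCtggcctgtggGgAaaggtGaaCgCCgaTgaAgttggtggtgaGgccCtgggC
Hba-x, chr11:32276664-32276753: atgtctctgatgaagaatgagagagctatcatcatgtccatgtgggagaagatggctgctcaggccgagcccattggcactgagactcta
Hba-a1, chr11:32283707-32283796: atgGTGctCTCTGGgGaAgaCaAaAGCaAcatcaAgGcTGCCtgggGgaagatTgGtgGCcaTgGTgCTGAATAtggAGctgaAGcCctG
Hba-a2, chr11:32296524-32296613: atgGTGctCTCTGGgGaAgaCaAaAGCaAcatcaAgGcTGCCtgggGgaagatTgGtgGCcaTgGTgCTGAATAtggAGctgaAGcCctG
Of these 90 bases, 30 differ from Hbb-y in Hbb-bh1 and 26 in each adult beta gene, and 44 differ from Hba-x in each adult alpha gene. The adult genes of a pair are letter for letter the same in this stretch. Over the whole coding sequence, 444 bases in each beta-type gene and 429 in each alpha-type gene, aligned bases were 76.4% identical between Hbb-y and Hbb-bh1, 74.3% between Hbb-y and Hbb-bs, and 63.8% between Hba-x and Hba-a1. The 12 pairs of an alpha-type with a beta-type gene were 56.0% to 60.5% identical.

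Each adult pair differed at a single coding base. Positions are counted from 1 at the first base of the start codon. Between Hba-a1 and Hba-a2 the difference was C381T, in codon 127 and exon 3, at base 32284343 of chromosome 11 in Hba-a1 and 32297160 in Hba-a2. The capital letter marks it in the 80 bases around it on the plus strand, shown because it is the base by which a read from the coding sequence can be given to either adult alpha gene.
Hba-a1, chr11:32284299-32284378: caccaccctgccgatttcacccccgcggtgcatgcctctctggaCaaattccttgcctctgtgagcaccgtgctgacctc
Hba-a2, chr11:32297116-32297195: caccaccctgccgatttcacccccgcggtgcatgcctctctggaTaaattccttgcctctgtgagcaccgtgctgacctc
Between Hbb-bs and Hbb-bt the difference was C417T, in codon 139 and exon 3, at base 103826692 of chromosome 7 in Hbb-bs and 103812683 in Hbb-bt. Neither difference changed the amino acid, so each adult pair encodes the same chain. Outside the coding sequence the pairs parted in different ways. The spliced models of Hba-a1 and Hba-a2 differed at 1 of 538 aligned bases, and the Hba-a1 model had 161 more bases at its 5′ end and the Hba-a2 model 16 more at its 3′ end. The models of Hbb-bs and Hbb-bt differed at 46 of 626 aligned bases.

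The libraries held 27890681 and 39969716 expected counts, and mouse genes took 27073576 and 38696856 of them. An expected count is the number of reads assigned to a gene after reads that match several transcripts are divided among them by estimate, and TPM is that count per base of effective length, scaled to the same total in each library over all rows. All 8 markers of facial mesenchyme, Msx1, Prrx1, Prrx2, Pdgfra, Twist1, Alx1, Barx1 and Dlx5, were at 1 TPM or more in both libraries, with a median of 104 TPM, as were all 4 markers of surface epithelium, with a median of 61.1 TPM. All 6 erythroid markers were at 1 TPM or more and summed to 71.7 and 69.2 TPM. All 3 endothelial markers also were, at sums of 67.8 and 67.4 TPM, and 4 of 5 leukocyte markers, where Itgam, at 0.67 and 0.89 TPM, was the exception. The 4 markers of platelets and megakaryocytes, Pf4, Itga2b, Gp1bb and Gp9, all reached 1 TPM in both libraries. They summed to 62.45 and 53.55 TPM, most of it from Pf4, at 49.01 and 39.85 TPM. The liver markers Ahsg and Hnf4a were under 3 counts in both libraries, Alb stood at 0.32 and 0.54 TPM, and Afp, the fourth on that list, at 2.54 and 2.62 TPM on 88 and 129 counts.

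Globin RNA made up 2.17% of mouse TPM in replicate 1 and 1.99% in replicate 2 (mean 2.08% ± 0.126, SD, n = 2). The 7 genes summed to 20202 and 18412 TPM. By counts, with no division by length, they took 183006 reads, or 0.676% of the mouse counts, in replicate 1 (95% Wilson interval 0.673% to 0.679%) and 236167 reads, or 0.610%, in replicate 2 (0.608% to 0.613%). The intervals cover counting error only. Globin mRNAs are short, with effective lengths of 439 to 649 bases, and the share per length was the higher one. In order of mean level, the genes ran Hbb-y, Hba-a2, Hba-a1, Hba-x, Hbb-bt, Hbb-bh1 and Hbb-bs. In all 6 neighbouring pairs of that order the values of the higher gene lay above those of the lower one in both libraries. The closest pair was Hbb-bh1 over Hbb-bs, at 1.21-fold, where the lower Hbb-bh1 value, 442 TPM, was near the higher Hbb-bs value, 424 TPM.

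**Figure D1:**
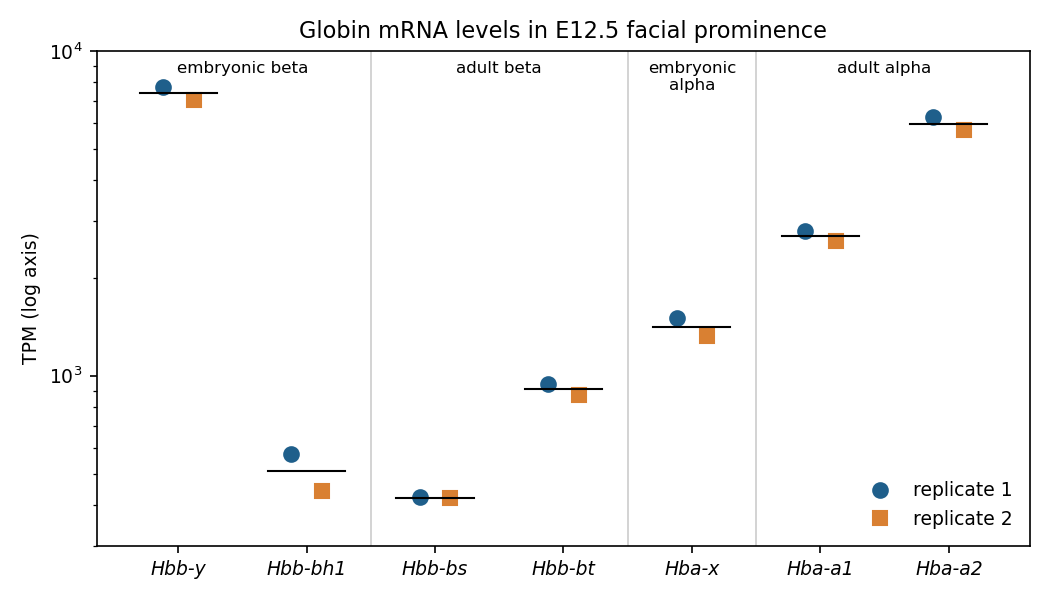
TPM of the 7 globin genes (log axis) in the 2 libraries, in the order embryonic beta, adult beta, embryonic alpha, adult alpha; each symbol is 1 library and each bar the mean. Hbb-y is at 7729.7 and 7055 TPM and Hbb-bs at 424 and 419 TPM, and replicate 1 is above replicate 2 for every gene.

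Hbb-y, the embryonic gene of the epsilon-y chain (GRCm38, chr7:103851749-103853216, minus strand), stood at 7729.7 TPM on 75894 counts in replicate 1 and 7055 TPM on 98269 counts in replicate 2 (mean 7393 ± 477, SD, n = 2). It ranked first among 21474 protein-coding genes in mean TPM, and Actb, the beta-actin gene of the cytoskeleton, was the first gene outside the globins below it, at 5631 ± 79.1 TPM. Hbb-y alone was 38.3% of globin TPM. Hbb-bh1, the other embryonic beta gene (chr7:103841637-103843164, minus strand), stood at 576 TPM on 5180 counts and 442 TPM on 5641 counts (mean 509 ± 94.6). Hbb-bh1 ranked 223 by mean TPM and was 2.63% of globin TPM. Its neighbours in level were Morf4l2, a chromatin protein gene, at 509 TPM and Cct3, a chaperonin subunit gene, at 504 TPM. Hbb-y made up 93.1% and 94.1% of embryonic beta TPM (mean 93.6% ± 0.733), so nearly all embryonic beta RNA was of that gene in both libraries.

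Of the adult beta genes, Hbb-bs (chr7:103826534-103828096, minus strand) stood at 424 and 419 TPM (mean 421 ± 3.30) on 3860.4 and 5388 expected counts. Hbb-bt (chr7:103812524-103813996, minus strand) stood at 944 and 873 TPM (mean 908 ± 50.3) on 9962 and 13066 expected counts. Hbb-bs ranked 286 and Hbb-bt 89 among protein-coding genes. The level of Hbb-bt lay between those of Rpl35, a ribosomal protein gene, at 912 TPM and Ywhaq, a 14-3-3 protein gene, at 908 TPM, and that of Hbb-bs between 1810022K09Rik at 422 TPM and Selenof, a selenoprotein gene, at 420.2 TPM. Hbb-bs made up 31.0% and 32.4% of adult beta TPM (mean 31.7% ± 1.03). Both genes encode the same chain, so their sum, 1368 and 1292 TPM, is the RNA behind it.

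Set against the adult beta genes, the embryonic ones summed to 8305 and 7497 TPM, which was 85.9% and 85.3% of beta-type TPM. The log2 ratio of embryonic over adult beta was 2.60 and 2.54 (mean 2.57 ± 0.05, SD, n = 2), or 5.94-fold. That ratio was far wider than the gap between the libraries. The ratio rested on Hbb-y, since Hbb-bh1 was below the adult gene Hbb-bt, which was the higher of them by 1.79-fold.

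Hba-x, the embryonic alpha gene of the zeta chain (chr11:32276400-32278116, plus strand), stood at 1504 TPM on 17048 counts and 1327 TPM on 21300.0 counts (mean 1416 ± 125). It ranked 38 among protein-coding genes, between Rps14, a ribosomal protein gene, at 1445 TPM and mt-Co2, a mitochondrial oxidase subunit gene, at 1414 TPM. Of the adult alpha genes, Hba-a1 (chr11:32283511-32284465, plus strand) stood at 2793 and 2605 TPM (mean 2699 ± 133) on 21525 and 28336 expected counts. Hba-a2 (chr11:32296489-32297298, plus strand) stood at 6232 and 5690.5 TPM (mean 5961 ± 383) on 49537 and 64167 expected counts. Hba-a2 ranked second to Hbb-y among all protein-coding genes. Hba-a1 ranked 13, between Rpl41, a ribosomal protein gene, at 2766 TPM and Ptma, the prothymosin alpha gene, at 2626 TPM. Hba-a2 made up 69.1% and 68.6% of adult alpha TPM (mean 68.8% ± 0.322).

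The alpha-type genes showed the opposite split from the beta-type genes. Hba-x stood at 1504 and 1327 TPM against 9025 and 8296 TPM for the adult alpha genes together, a log2 ratio of -2.58 and -2.64 (mean -2.61 ± 0.04, SD, n = 2). Embryonic RNA was thus 14.0% ± 0.350 of alpha-type TPM, and 85.6% ± 0.396 of beta-type TPM. Over both chain types, embryonic genes held 48.2% ± 0.445 of globin TPM and adult genes 51.8% ± 0.445. Which class held more depended on the length used: by counts not divided by length, embryonic genes held 98122 and 125210 reads and adult genes 84884 and 110957 reads, so that embryonic genes had 53.6% and 53.0%. With full mRNA lengths they had 50.4% and 49.8%. Those lengths include, for Hba-a1, 161 bases at the 5′ end that the Hba-a2 model lacks. For Hbb-bs they take the deposited model of 778 bases, which has 628 in M21. The opposite splits within the alpha-type and beta-type genes held in both of these settings.

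**Figure D2:**
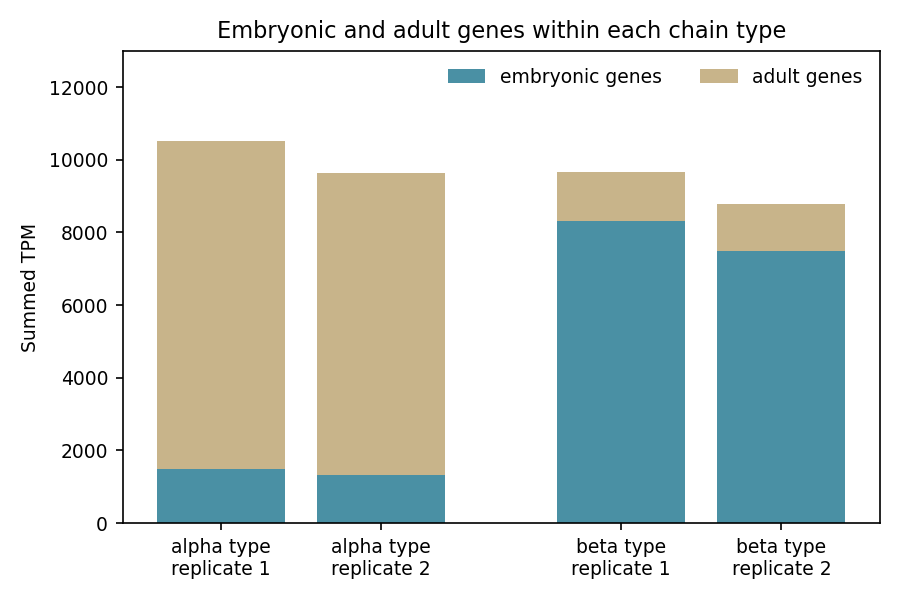
Summed TPM of embryonic and adult genes, stacked, within the alpha-type and the beta-type genes of each library. Embryonic genes hold 14.3% and 13.8% of the alpha-type bars and 85.9% and 85.3% of the beta-type bars, while the bars of a library are of nearly the same height.

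Alpha-type genes together stood at 10529 and 9623 TPM and beta-type genes at 9673 and 8789 TPM. The log2 ratio of alpha over beta was 0.12 and 0.13 (mean 0.13 ± 0.0059), or 1.09-fold in each library. The small excess of alpha RNA depended on the length by which reads were divided. With counts not divided by length, alpha-type genes held 88110.0 and 113803 reads and beta-type genes 94896 and 122364 reads, a ratio of 0.928 and 0.930, which was on the other side of 1. With every read of a gene divided by the effective length of its full mRNA model, the ratio was 1.01 in both libraries. With the most abundant transcript of each gene alone it was 1.00 and 1.01, but that setting also changed which RNA was summed. For Hba-a1 and Hbb-bs it kept models that retain an intron. It left out a mean of 593 TPM of the full Hba-a1 model, 343 TPM of a shorter Hba-x model and 129 TPM of the full Hbb-bs model. The full Hba-a1 model has 161 bases at its 5′ end that the Hba-a2 model lacks, and whether reads cover them was not tested. If they are not part of the mRNA, the effective length of 600 bases is too long and the full-model ratio too low. The direction of the imbalance is therefore not settled by these files, and the ratio ran between 0.928 and 1.09 over the settings tried.

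**Figure D3:**
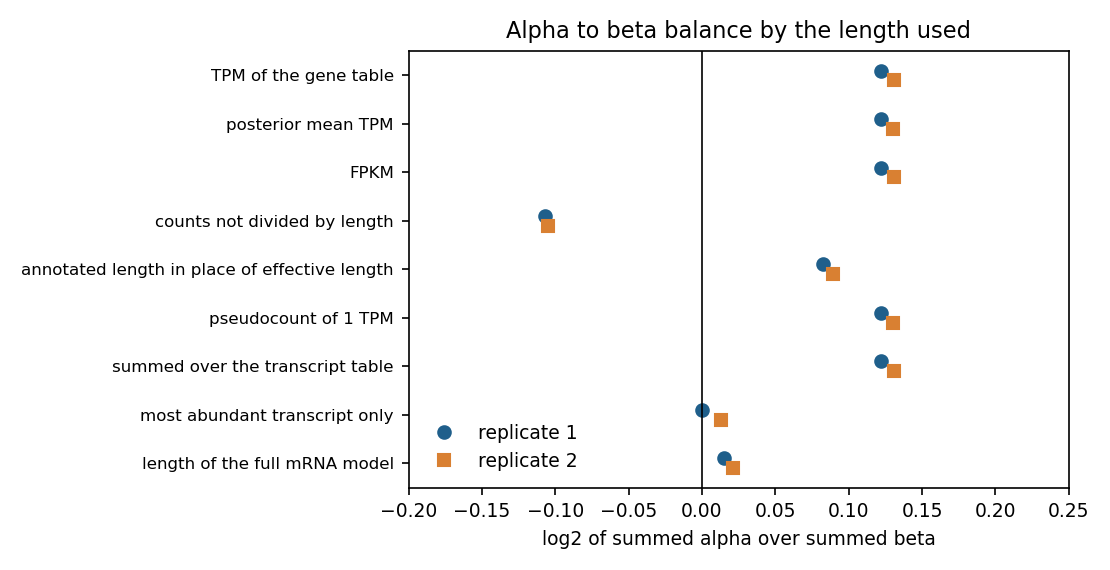
Log2 ratio of summed alpha over summed beta RNA in each library, by the values or the length used; the vertical line marks equal sums. Counts not divided by length lie left of the line, at -0.11 and -0.10, TPM lies right of it, at 0.12 and 0.13, and the settings that use 1 model per gene lie close to the line.

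Read sharing was confined, among the 7 spliced models, to the adult pairs. Of all stretches of 75 bases in the Hba-a2 model, 81.0% were also found in another gene of the M21 annotation, and in every case that gene was Hba-a1. The share was 62.2% for Hba-a1, 64.3% for Hbb-bs and 56.6% for Hbb-bt, and again the partner was the only other gene. For Hbb-bs it refers to the M21 model of 628 bases, whereas the deposited tables used a full model of 778 bases and a retained intron model of 549 bases, which is 344 bases in M21, so sharing along the models that took the reads was not measured. For Hba-a1 the share likewise refers to the full model, where stretches that reach into its 161 further 5′ bases count as its own. Its retained intron model took 14935 and 20042 of the gene's 21525 and 28336 expected counts, and sharing along it was not measured. That model differs from the retained intron model of Hba-a2 at 1 of 494 bases. For Hbb-y, Hbb-bh1 and Hba-x the share was 0 of 559, 0 of 539 and 0 of 727 stretches. Effective lengths were 99 bases under the annotated lengths in every member, and at 100 bases the shares were 74.5% for Hba-a2, 56.5% for Hba-a1, 62.6% for Hbb-bs and 54.8% for Hbb-bt.

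The expected counts followed the same lines. Hbb-y, Hbb-bh1 and Hba-x had whole counts and a posterior standard deviation of 0 reads, that is, no read was divided with another gene. Counts of the other 4 genes had fractions in at least 1 library, but each pair summed to a whole number within 0.02 reads: 13822 and 18454 for Hbb-bs with Hbb-bt, and 71062 and 92503 for Hba-a1 with Hba-a2. The posterior standard deviation from dividing reads was equal within a pair, at 166.91 and 198.76 reads for the alpha pair and 70.64 and 78.45 reads for the beta pair. It was at most 0.775% of the count in the alpha pair and 1.82% in the beta pair, both in replicate 1. The split of a pair is the authors' estimate. For the transcript models used it is uncertain to that degree beyond counting error, whereas the count sums of a pair are not affected. In TPM the split moved more with the length used. With full mRNA lengths the Hba-a2 share of adult alpha went from 68.8% to 75.1%, and the Hbb-bs share of adult beta from 31.7% to 26.2%. These lengths count the 161 further 5′ bases of Hba-a1, which lie before its RefSeq start. For Hbb-bs they take the deposited model of 778 bases, which has 628 in M21.

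**Figure D4:**
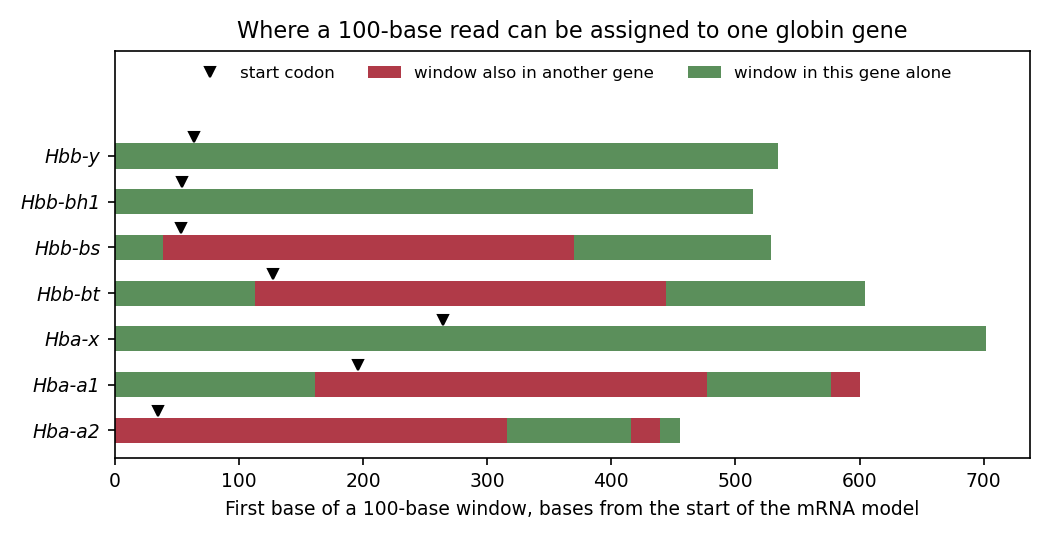
Stretches of 100 bases along the spliced model of each globin gene, by the first base of the stretch; red stretches are also present in another gene, green ones are not, and the triangle marks the start codon. Hbb-y, Hbb-bh1 and Hba-x are green throughout, and in Hba-a2 339 of 455 stretches are red, against 339 of 600 in Hba-a1.

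The transcript rows placed adult reads unevenly. Of the 12 models, 3 are of the retained intron type in M21, a class of transcript that keeps an intron and is not translated into the full chain. The retained intron model of Hba-a1 took 2164 and 2047 TPM, or 78.0% ± 0.778 of its gene's TPM, against 629 and 558 TPM for the full mRNA model. The retained intron model of Hba-a2, of 494 bases like that of Hba-a1 and different from it at 1 base, was listed at 0 TPM in both libraries, and the full mRNA model took all of that gene. Of the 494 bases of either retained intron model, 381 are also in the full mRNA model of its gene and 113 are not. The posterior standard deviation of the full Hba-a1 model was 271 and 327 reads, larger than that of the gene, 167 and 199 reads. Reads across those 113 bases cannot be counted from the deposited tables, so whether intron sequence was present was not tested.

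Hbb-bs showed a similar split. Its retained intron model took 292 TPM in each library, or 69.2% ± 0.537 of the gene. Its full mRNA model took 132 and 126 TPM, and a further protein-coding model was at 0 and 1.12 TPM. Hbb-bt has a single model. The Hba-x gene divided into the main model at 1143 and 1002 TPM (75.8% ± 0.354) and a shorter protein-coding model of 579 bases, at 361 and 325 TPM (24.2% ± 0.354). Short models raise a gene's TPM for the same reads, since the gene's effective length is a weighted mean over its models. With all reads divided by the full model's effective length, Hba-a1 came to 1981 ± 105 TPM, Hbb-bs to 323 ± 3.74 TPM and Hba-x to 1308 ± 117 TPM, and the order of the 7 genes did not change. The Hba-a1 value rests on a model with 161 bases at its 5′ end that the Hba-a2 model lacks. The Hbb-bs value rests on the deposited model of 778 bases, which has 628 in M21.

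**Figure D5:**
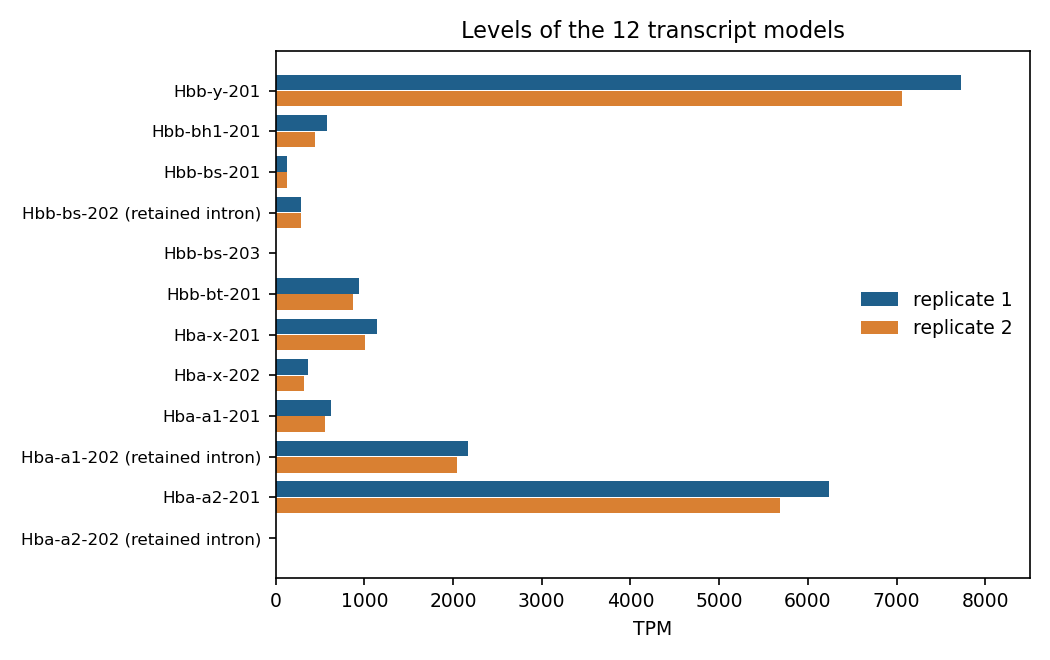
TPM of the 12 transcript models of the globin genes in each library, with models of the retained intron type marked. That of Hba-a1 is at 2164 and 2047 TPM and that of Hba-a2 is listed at 0 in both libraries.

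All 7 globin genes were higher in replicate 1 than in replicate 2, where 47.8% of 9111 protein-coding genes with a mean of 10 TPM or more were. Past 2-fold were 0 of the 7, against 0.121% of those genes: 0 of the 7 were higher by that fold, against 0.022%, and 0 lower, against 0.0988%. On the log2 scale with 1 TPM added, the difference was largest for Hbb-bh1, at 0.38 or 1.30-fold, then Hba-x at 0.18, Hbb-y and Hba-a2 at 0.13, Hbb-bt at 0.11 and Hba-a1 at 0.10, and smallest for Hbb-bs, at 0.02 or 1.01-fold. The median of the members was 0.13, against -0.0047 over all those genes. Counting error was 1.39% and 1.33% of the Hbb-bh1 counts, well under its difference, and 1.61% and 1.36% of the Hbb-bs counts, which was as large as its difference. With 2 libraries there is no spread within a condition to set these against. The shares of embryonic RNA moved by 0.559 percentage points in the beta-type genes and by 0.495 in the alpha-type genes.

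Of 19 listed genes for proteins of the red cell membrane, its enzymes and its iron supply, 18 were matched and 17 reached 1 TPM in both libraries, at a sum of 1152 and 1064 TPM. Most of that sum was Prdx2, an antioxidant enzyme that many cell types make, at 933 and 853 TPM, which was above Hbb-bs and Hbb-bh1 in both libraries. Of genes more restricted to red cells, Alas2, which starts haem synthesis in erythroid cells, stood at 34.4 and 35.2 TPM, and Slc4a1, the band 3 anion exchanger, at 21.9 and 20.2 TPM. In this list 12 of 18 genes were higher in replicate 1, with a median log2 difference of 0.11. Of protein-coding genes with a mean of 10 TPM or more, 47.8% were higher there, though the median of this list was lower, at 6.69 TPM. The share of all genes that reached 1 TPM was not computed, for this and the other lists. All 8 enzymes of haem synthesis were at 1 TPM or more, with a median of 50.7 TPM, and 3 of the 8 were higher in replicate 1.

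The 15 listed regulators of globin genes were all at 1 TPM or more in both libraries, with a median of 8.68 TPM. Of the 15, 9 were higher in replicate 1, against 47.8% of protein-coding genes with a mean of 10 TPM or more. Among those that activate globin or red cell genes, Klf1, which binds CACCC elements and drives adult beta-globin transcription, stood at 3.91 and 4.47 TPM, Gata1, the master factor of the red cell lineage, at 1.94 and 1.45 TPM, and Tal1, its partner, at 2.05 and 1.93 TPM, while Lmo2, which bridges these factors, averaged 15.5 ± 1.11 TPM. Of those known to repress embryonic globin genes in definitive red cells, Bcl11a averaged 68.8 ± 3.65 TPM, Zbtb7a 18.0 ± 0.403 TPM, Sox6 10.7 ± 1.31 TPM, Nr2c1 8.68 ± 0.290 TPM and Nr2c2 23.0 ± 2.11 TPM. The methyl-CpG binding gene Mbd2 averaged 6.935 ± 0.601 TPM and the progenitor factor Myb 4.655 ± 0.629 TPM. Activators and repressors thus overlapped in level. Ldb1, the factor that joins enhancer and promoter at the beta locus, averaged 115 ± 6.38 TPM, and Chd4, a chromatin remodeller, 80.2 ± 7.42 TPM. Several of these factors are also known from cells other than blood, and a level in whole tissue is not the level in red cells.

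The promoter table from RefSeq (GRCm38.p6) held 6 of the 7 genes, all but Hbb-bh1, with 250 bases before and 50 after each start. Promoters are shown for the most abundant gene of each chain type and for an adult beta gene, because they carry the known elements of a globin promoter in the same stretch. Capitals mark the CACCC box, the CCAAT box and a TATA-like element (CATAAA in Hbb-y, and in the other two promoters CATATAA) in the bases just before the start.
Hbb-y, chr7:103853208-103853319, minus strand: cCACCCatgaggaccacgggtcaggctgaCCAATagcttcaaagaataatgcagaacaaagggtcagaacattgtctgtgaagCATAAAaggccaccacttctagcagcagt
Hbb-bs, chr7:103827929-103828040, minus strand: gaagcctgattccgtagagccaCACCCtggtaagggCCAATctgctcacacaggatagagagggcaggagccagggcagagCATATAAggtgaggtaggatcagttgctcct
Hba-a2, chr11:32296380-32296491, plus strand: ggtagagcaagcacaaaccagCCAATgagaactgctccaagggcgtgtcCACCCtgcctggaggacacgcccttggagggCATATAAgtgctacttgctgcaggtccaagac
Within the bases printed, CACCC came before CCAAT in the beta-type promoters, at -111 and -83 in Hbb-y and -90 and -76 in Hbb-bs, and after it in Hba-a2, at -63 and -91, where a further CACCC lay upstream of the bases printed, at -170. The TATA-like element began at -29 in Hbb-y, -31 in Hbb-bs and -32 in Hba-a2. Positions give the first base of the motif before the start. Over the 300 bases and both strands, CACCC was in all 6 globin promoters and in 57.5% of 32851 promoters of the table, CCAAT in 5 of 6, all but Hba-x, and in 37.4%, and GATAA in 6 of 6 and in 25.4%. TATAAA was in Hbb-bt and Hba-x and in 13.6% of all promoters, CATAAA in Hbb-y and in 11.9%, and CATATAA in Hbb-bs, Hba-a1 and Hba-a2 and in 2.31%. The TATA-like spellings with C as first letter were chosen after the sequences were seen. In Hbb-y a GATAA match on the reverse strand shared 1 base with a CATAAA match farther upstream, and a match is a description of letters only. The promoters of Hba-a1 and Hba-a2 were identical over 297 compared bases at an offset of 3 bases, while the levels of these genes differed 2.21-fold as deposited.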

How the data were processed

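Total RNA longer than 200 bases was sequenced with added spike-ins, per the labels. The deposited tables give, per gene and per transcript, the authors' expected count, TPM, FPKM, posterior values and, for transcripts, the percent of the gene's TPM (IsoPct). The build is mm10, per the labels, and the annotation GENCODE M4, per the deposited notes. Neither aligner nor quantifier is named (not given in the sources used here). The strand setting is likewise unstated, so reads of overlapping antisense transcripts cannot be told apart. Symbols and sequences came from GENCODE M21 (GRCm38), which matched 42462 of 43346 mouse gene IDs. Of the 12 globin models 7 have the same version there, and the full models of Hbb-y, Hbb-bh1, Hbb-bs and Hba-x and the retained intron model of Hbb-bs do not.

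TPM was summed over genes, ratios were taken per library as log2, and values are mean ± SD over 2 separate pools. Library differences used log2(TPM + 1) over protein-coding genes with a mean of 10 TPM or more. A library at 0 counts is limited to 3 counts, or 0.172 and 0.121 TPM at 1000 bases of effective length. Alternatives used expected counts rounded for edgeR 4.0.16 (R 4.3.3). Python 3.11.15, numpy 2.4.6, pandas 2.3.3, scipy 1.17.1 and matplotlib 3.10.9 were used, and the scripts were tested on simulated data. Named genes were all members, other globin-fold genes, genes within 100 kb of a member with a mean of 1 TPM or more, fixed lists of regulators, red cell and haem genes, and the nearest genes in level. Members and lists were chosen with earlier results of these data known. Hba-ps3 and Ahsp matched no row. Some listed genes are counted with their list and not reported here by name.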

Additional observations from a re-analysis of the deposited data

How the results depend on the processing

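Of 98 alternative values for 13 results under 20 settings, 70 were labelled the same, 25 moved and 3 reversed. The same meant within the spread between libraries, or, for members past 2-fold, a count still at 0. For read sharing it meant within a Wilson interval on the stretches. These overlap along a fixed sequence, so that interval is a yardstick and measures no counting error. With 2 libraries, a value with either left out cannot move beyond the spread between libraries. FPKM and the summed transcripts only restate the same TPM. Those values are among the 70 by construction and say nothing of how firm a result is. Embryonic over adult RNA of both chain types, added after seeing the data, had a log2 ratio of -0.10 and reversed to 0.19 with counts not divided by length and 0.0050 with full mRNA length. It was -0.0532 with annotated length and -0.0472 with the most abundant transcript, and -0.12 to -0.0833 when either library was left out. The log2 ratio of alpha over beta chains reversed to -0.11 with counts not divided by length. It was 0.0859 with annotated length, 0.00635 with the most abundant transcript alone and 0.0182 with the full mRNA length, a setting chosen after seeing the data. The globin share of TPM was 0.643% by counts, 1.94% by annotated length, 1.93% over all rows with spike-ins and 2.35% over protein-coding genes. Embryonic over adult beta was 2.52 by counts, 2.72 with the most abundant transcript and 2.68 with full mRNA length, and Hba-x over adult alpha -2.09, -2.91 and, by annotated length, -2.53. The Hba-a2 share of adult alpha was 69.5%, 73.9% and 75.1% by counts, most abundant transcript and full mRNA length, and the Hbb-bs share of adult beta 28.6%, 24.3% and 26.2%. Values by full mRNA length that include Hba-a1 rest on its model with 161 further bases at the 5′ end. Those that include Hbb-bs rest on its deposited model of 778 bases, which has 628 in M21. The most abundant transcript is the retained intron model for Hba-a1 and Hbb-bs, and that setting leaves out all other models of a gene. Stretches of Hba-a1 shared with another gene were 67.5% at 50 bases and 56.5% at 100, and of Hba-a2 86.9% and 74.5%. Leaving out either library gave 1.99% to 2.17% for the globin share, 2.54 to 2.60 for embryonic over adult beta, -2.64 to -2.58 for Hba-x over adult alpha, 0.12 to 0.13 for alpha over beta, 68.6% to 69.1% for Hba-a2, 31.0% to 32.4% for Hbb-bs and 93.1% to 94.1% for Hbb-y. Scaling to the spike-ins shifted the median of all genes by 0.13, to 0.12, and brought that of the members to 0.27. In all 9 scalings and thresholds tried, 7 of 7 members were higher in replicate 1 and 0 passed the fold. The main setting is among the 9, and FPKM restates the same TPM. The settings for pseudocount, minimum level and 1.5-fold cannot change which library is higher for a member. With 1 sample left there is no spread. No paired analysis was possible because all samples belong to 1 group.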

Other observations

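Other genes of the globin fold were low. Cygb, cytoglobin, was highest among those with more than a few reads, at 5.33 and 5.88 TPM, followed by Hbq1b, a theta-type gene of the alpha cluster, at 3.82 and 2.04 TPM, and Mb, the myoglobin of muscle, at 1.08 and 1.46 TPM. Ngb, neuroglobin, stood at 0.32 and 0.34 TPM and Adgb, androglobin, at 0.17 and 0.16 TPM. The other theta-type gene, Hbq1a, stood at 0.45 and 0.13 TPM on 3.95 and 1.62 expected counts, and its counts with those of Hbq1b summed to 36 and 27. Hbb-bh2, in the beta cluster, had 0 and 2 counts, Hbb-bh3 had 0 in both libraries, which allows up to 3 counts each, and Hba-ps4 had 1 and 0. The pseudogene Hbb-bh0 was listed at 3.82 and 20.2 TPM on 2 and 15 counts, since its effective length is 30 bases. Both libraries reached 1 TPM for 4 of the 10 matched genes.

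The surroundings of the clusters differed. Within 100 kb of the beta-type genes, 17 of 19 annotated genes had rows, 13 had 0 TPM in both libraries and 12 were olfactory receptor genes with at most 1 count. Of the rest, Hbb-bh0 and Dnajc19-ps, a processed pseudogene at 1.87 and 1.94 TPM, had a mean of 1 TPM or more. Within 100 kb of the alpha-type genes all 9 annotated genes had rows and 6 had a mean of 1 TPM or more. Snrnp25, a minor spliceosome gene, averaged 58.0 ± 0.827 TPM, Rhbdf1, a rhomboid family gene, 39.8 ± 1.77 TPM, and Nprl3, whose introns hold known alpha-globin enhancers, 39.2 ± 0.0919 TPM. Mpg, a DNA glycosylase gene, averaged 29.9 ± 0.354 TPM and Sh3pxd2b, an adaptor gene of podosomes, 24.55 ± 1.13 TPM. Hbq1b was the sixth.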
